A study of Homo sapiens with 12 samples.

Results

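The response of MHCC97H cells to AZD8055 was compared, gene by gene, with the responses of Hep3B and Huh7 cells. These are established lines of human hepatocellular carcinoma (HCC), and AZD8055 inhibits the mTOR kinase in both of its complexes. For each of the 11548 genes in the table, the log2-fold change of AZD8055 against untreated cells in MHCC97H was taken, and the mean of those in Hep3B and Huh7 was subtracted. This difference was computed for 11548 of 11548 genes and rests on 6 of the 12 libraries of the series. MHCC97H cells were left untreated or given 100 nM of AZD8055 and were collected after 24 h, while the other lines received the same dose and were collected after 48 h. Cell line and exposure time therefore cannot be told apart in any value below, and "MHCC97H" stands for that line at 24 h. All cells are labelled as wild type. Each line and treatment is represented by 1 library, without replicates. The other 6 libraries come from the same lines with compound #57, an allosteric inhibitor of SHP2, either alone or in combination (5 µM) with AZD8055. They share no library with the comparison, and so the difference between the lines was measured again in them, as the combination against compound #57 alone.

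mTOR complex 1 drives protein, lipid and nucleotide synthesis and holds back autophagy, while complex 2 activates AKT. AKT keeps the FOXO transcription factors out of the nucleus, so that their targets, among them receptors and brakes of growth factor signaling, are known to be induced when the pathway is blocked. Progress from G1 into S phase depends on E2F transcription factors, which switch on the genes of DNA replication once cyclin-dependent kinases have inactivated the RB family. These relations are background and were not measured here.

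The 12 libraries held between 10659951 and 15957252 reads. Levels are given as reads per 10000000 reads of a library (reads per 10M), and log2-fold changes were taken after 1 was added to this level, a scale on which changes of scarce genes appear smaller than they are. Intervals given for a log2-fold change are 95% Clopper-Pearson intervals that cover counting error between a pair of libraries only. Markers of hepatocellular origin were unevenly present. HNF4A, KRT8 and KRT18 were found in all 6 libraries, but ALB stood at 303 and 142 in MHCC97H, untreated and with AZD8055, against 211082 and 119637 in Hep3B and 40749 and 23891 in Huh7. TTR and APOA1 had under 10 reads in either MHCC97H library. Summed over the 10 markers, the level was 52971 and 61783 in MHCC97H and between 237423 and 424905 in the other libraries, and its part in the results was not tested. Most of the MHCC97H sum came from keratins, with KRT8 at 35616 and 42741 and KRT18 at 15551 and 17242. The sum therefore understates how far the other markers lay below those of Hep3B and Huh7. Of the markers of other cell types, PTPRC, CD3E, CD68, VWF and COL3A1 were not in the table. PECAM1 stood at 285 and 368 in MHCC97H, at 9.38 and 5.73 in Hep3B and at 55.8 and 9.14 in Huh7. COL1A1 stood at 9.99 and 12.6 in MHCC97H, at 28.1 and 35.2 in Hep3B and at 92.1 and 889 in Huh7. PDGFRB stood at 0 and 3.51 in MHCC97H, at 235 and 462 in Hep3B and at 387 and 500 in Huh7.

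In MHCC97H, AZD8055 went with lower levels of the DNA replication genes and with higher levels of FOXO targets, whereas the differences were smaller in Hep3B and Huh7. Conversely, the ligands AREG and EREG and the chemokine CXCL8 were higher with AZD8055 in Hep3B and Huh7 and lower in MHCC97H. The gene lists used here were chosen with earlier results of these data known, and their counts are descriptions. Over all genes, the log2-fold change in MHCC97H lay above those of both other lines for 4634 genes (40.1%) and below both for 4183 (36.2%). It lay above both by 1 or more on the log2 scale for 393 genes (3.4%) and below both by 1 or more for 275 (2.38%). The distance to the nearer of the other lines is called the gap here. Genes just inside the limits had gaps of 1.001 and -1.003, and genes just outside had gaps of 0.9994 and -0.9974.

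**Figure D1:**
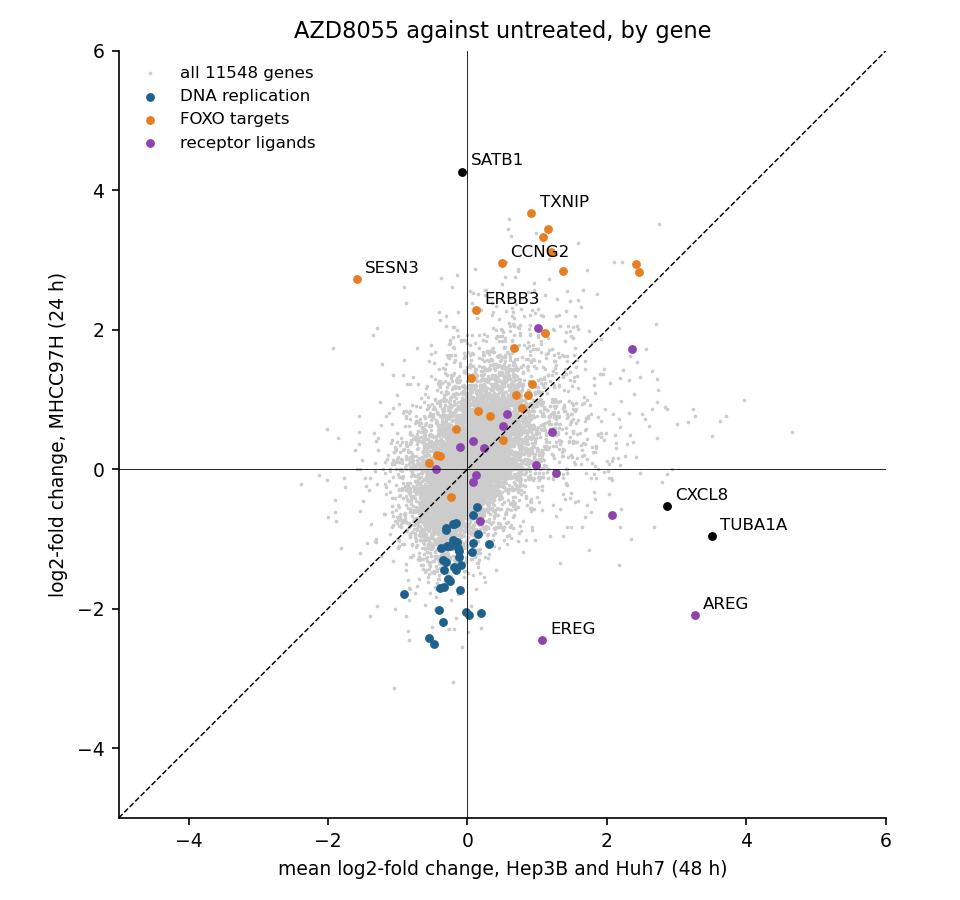
Each point is 1 of the 11548 genes, with the mean log2-fold change (AZD8055 against untreated) of Hep3B and Huh7 on the horizontal axis and that of MHCC97H on the vertical axis. The DNA replication genes (blue) lie below 0 in MHCC97H, most FOXO targets (orange) above the dashed line of equal change, and AREG and EREG (purple, with the other receptor ligands) and CXCL8 (black, in no list shown) at the lower right, lower in MHCC97H and higher in the other lines.

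The genes above both lines by 1 or more mostly had their larger response in MHCC97H. Of the 393, 234 had a log2-fold change of at least 1 in size in MHCC97H and of less than 1 in both other lines, while for 25 it was both other lines that reached 1 and MHCC97H that did not. The 275 genes below were divided more evenly, with 109 of the former kind and 95 of the latter. A change of opposite sign in MHCC97H and in both other lines was found for 194 and 134 genes, but it reached 1 in all lines for only 3 and 2 of them.

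A test of these differences has to borrow its error from the spread between Hep3B and Huh7. limma was fitted to all 12 libraries with 3 residual degrees of freedom, on the assumption that MHCC97H varies as these lines do. At a Benjamini-Hochberg adjusted p-value under 0.05, it called 2 of 11548 genes (0.0173%), AREG and CXCL8, both lower in MHCC97H, and 1271 genes had an unadjusted p-value under 0.05. In simulated data, the same fit recovered 0% of genes that differed by 1, 30% of those that differed by 2 and 78% of those that differed by 3, so that differences of the size seen for most genes could not be called with these libraries. The simulation capped the spread of each gene and gave it the same mean level in all lines. Recovery of genes that vary more, or that are scarce in only some lines, was not simulated. When the spread was instead taken from the departure of AZD8055 and compound #57 from additive effects within each line, 585 genes (5.07%) were called higher and 515 (4.46%) lower in MHCC97H. This alternative averages the difference over both pairs of libraries and has no spread between cultures in it, and its calls are named as calls of the additive fit.

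In the libraries with compound #57, the difference between the lines was seen again for most of these genes. Over all genes, MHCC97H then lay above both lines for 33.1% and below both for 39.5%. Of the 393 genes above by 1 or more with AZD8055 alone, 333 (84.7%) were again above both lines, 14 were below both and 46 were between. Of the 275 below, 227 (82.5%) were below both again, 20 were above and 28 between. An unadjusted limma p-value under 0.05 for the difference in these other libraries was found in the same direction for 157 and 112 genes. It was found in the opposite direction for 1 and 1. The spread in this test came from all 12 libraries, among them those used to choose these genes, so that the p-values are not independent of that choice. The differences were smaller, with medians that went from 1.46 to 1.002 for the genes above and from -1.47 to -0.89 for those below. No gene was called in these libraries by limma (1198 genes at an unadjusted p-value under 0.05), whereas a fit to the 6 libraries with compound #57 alone called 18. Among the 9175 genes with at least 50 reads in each of the 6 libraries, a choice made after the data were seen, 129 were above by 1 or more and 154 below, and 91.5% and 90.9% of them were on the same side with compound #57. Across all genes the differences of both pairs had a Pearson correlation of 0.628 and a Spearman correlation of 0.615, a description over genes that share the libraries of each pair.

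**Figure D2:**
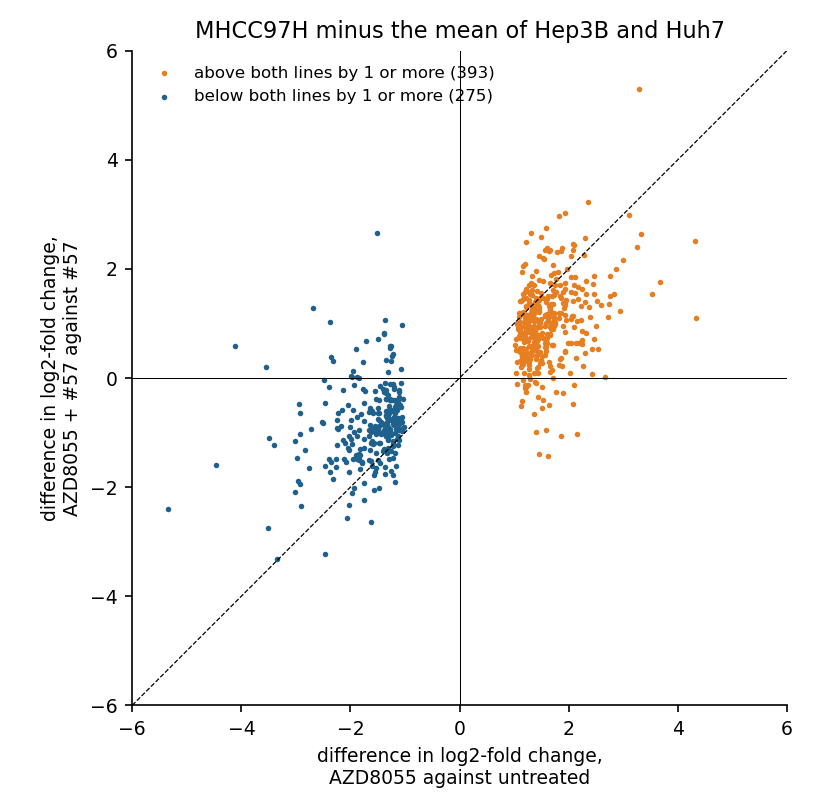
Points are the 393 genes (orange) and 275 genes (blue) whose MHCC97H log2-fold change with AZD8055 lay outside both other lines by 1 or more, a choice made on the values of the horizontal axis. The vertical axis is the same difference (MHCC97H minus the mean of Hep3B and Huh7) in the libraries with compound #57, and most points keep their side of 0 while lying nearer to 0, with medians of 1.002 and -0.89.

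The genes of DNA replication set MHCC97H apart more than any other of the 23 lists by the size of their median difference from the mean of both lines. Against Huh7 alone, drug and bile acid metabolism had the larger one, at 1.20 beside -1.07. The DNA replication list was chosen, like the others, with earlier results of these data known. It holds 38 genes of origin licensing, the replicative helicase and polymerases, nucleotide supply and S-phase entry. All of them were in the table, with at least 50 reads in each of the 6 libraries. With AZD8055, their median response was -1.28 on the log2 scale in MHCC97H, -0.08 in Hep3B and -0.29 in Huh7. In MHCC97H 38 of 38 were lower, against 26 in Hep3B and 31 in Huh7. The MHCC97H value was below both lines for 38 of 38 genes, compared with 36.2% of all genes, and by 1 or more for 20, compared with 2.38%. The differences ran from -2.27 to -0.53 with a median of -1.13, beside a median of 0.02 over all genes. On top of compound #57 the MHCC97H value was again below both lines for 38 of 38 (39.5% of all genes), with a median difference of -0.97. None of the 38 was called by limma, while the additive fit called 36 lower (4.46% of all genes). An unadjusted limma p-value under 0.05 was found for 33, all lower, beside 566 lower genes of all 11548. In these bulk libraries, fewer cells in S phase and less RNA of these genes per cell cannot be told apart.

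E2F1 (chromosome 20, 33675477 to 33686385), the transcription factor that activates this program and its own promoter, went from 714 to 172 in MHCC97H, from 322 to 370 in Hep3B and from 857 to 721 in Huh7. On compound #57 it went from 818 to 176 in MHCC97H, from 505 to 381 in Hep3B and from 889 to 604 in Huh7. The MHCC97H library with AZD8055 thus had the lowest level of the 6, from a start between those of the other lines. The log2-fold changes were -2.05, 0.20 and -0.25, which gave a difference of -2.02 (SE 0.34, limma adjusted p = 0.138), and the difference on compound #57 was -1.73. GINS2, a subunit of the GINS complex of the replicative helicase, went from 370 to 86.3 in MHCC97H, from 280 to 289 in Hep3B and from 444 to 447 in Huh7. Its difference was -2.11 (SE 0.27, limma adjusted p = 0.131).

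MCM10, which helps to activate the helicase, went from 698 to 122 in MHCC97H, from 616 to 465 in Hep3B and from 718 to 485 in Huh7. Its difference was -2.02 with AZD8055 alone and -2.33 on compound #57. CCNE2, a cyclin that activates CDK2 at the start of S phase, stood at 321 and 75.8 in MHCC97H, at 236 and 235 in Hep3B and at 107 and 141 in Huh7. Its difference of -2.27 was the largest of the list. Further members are named here after their values were seen. CDC6, which loads the helicase onto origins, went from 1474 to 274 in MHCC97H, from 1780 to 1447 in Hep3B and from 1643 to 948 in Huh7. RRM2, the small subunit of ribonucleotide reductase, went from 1255 to 275, from 1668 to 1486 and from 3267 to 2257 in the same order. PCNA, the sliding clamp of the polymerases, went from 2557 to 938, from 2239 to 2035 and from 3113 to 2734. In each of these genes the Huh7 and Hep3B libraries moved by less than the MHCC97H pair. Among the helicase subunits, MCM5 had a difference of -1.14, MCM2 of -0.90, MCM6 of -0.86 and MCM7 of -0.59, all nearer to 0 than those of MCM10 and CDC6. WDR76 and FAM111B, which are in no list, behaved in the same way, with differences of -2.47 and -2.35 (limma adjusted p = 0.109 for each). They were selected by gap among genes with at least 50 reads in both MHCC97H libraries, a choice made after the data were seen.

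The promoters of the list were searched for E2F sites, since this factor is known to bind them. The letters TTTGGCGC, TTTCCCGC, TTTCGCGC and TTTGCCGC were searched on both strands from 250 bases before to 50 bases after the RefSeq start (hg38), a motif chosen after the data were seen. A match was found in 18 of the 33 members with a promoter in the reference (54.5%), compared with 6.85% of the 9282 table genes with a promoter and 3.99% of all 27305 promoters. Of the genes below both lines by 1 or more, 16.7% had a match, and 11.5% of those outside the DNA replication, mitosis and G1 regulator lists did. Of the genes above by 1 or more, 2.72% had one. The 250 bases before the start are shown for E2F1, GINS2 and MCM6, as members with a match near the start or with repeated matches, 5′ to 3′ on the strand of the gene with the matches in capitals. They lie at chr20:33686386-33686635 (minus strand), chr16:85688955-85689204 (minus) and chr2:135876444-135876693 (minus).
E2F1: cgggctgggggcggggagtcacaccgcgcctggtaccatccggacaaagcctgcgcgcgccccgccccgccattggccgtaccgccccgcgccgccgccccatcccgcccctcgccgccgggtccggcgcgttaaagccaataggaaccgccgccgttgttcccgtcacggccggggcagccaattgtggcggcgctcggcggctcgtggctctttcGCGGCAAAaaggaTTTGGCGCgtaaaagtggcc
GINS2: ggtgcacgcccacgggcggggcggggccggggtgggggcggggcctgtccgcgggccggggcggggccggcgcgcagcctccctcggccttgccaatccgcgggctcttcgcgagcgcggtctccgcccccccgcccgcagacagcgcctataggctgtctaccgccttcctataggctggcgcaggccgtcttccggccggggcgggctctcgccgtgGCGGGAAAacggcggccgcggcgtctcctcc
MCM6: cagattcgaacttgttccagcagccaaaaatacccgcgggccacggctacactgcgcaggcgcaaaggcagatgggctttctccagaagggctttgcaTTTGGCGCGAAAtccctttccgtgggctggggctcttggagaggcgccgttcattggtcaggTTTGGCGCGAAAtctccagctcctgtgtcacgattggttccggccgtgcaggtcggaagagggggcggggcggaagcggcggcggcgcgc
In E2F1 the matches begin 33 and 20 bases before the start, and in GINS2 the match begins 31 bases before it. MCM6 has 4 overlapping matches in a pair of runs, which begin 152, 148, 90 and 86 bases before the start. The matches are descriptions of these letters and say nothing of binding in these cells. Over all table genes, those with a match had a median difference of -0.07 and those without one of 0.03.

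Mitotic genes differed less. For the 36 genes of the list, the median log2-fold change in MHCC97H was -0.80, beside -0.23 for Hep3B and -0.15 for Huh7, and MHCC97H was below both lines for 32 of them (36.2% of all genes). Only 1, CDK1, the kinase that drives entry into mitosis, was below by 1 or more, with levels of 1317 and 598 in MHCC97H, 1525 and 1405 in Hep3B and 2013 and 2080 in Huh7. On compound #57 the difference was not found again, since MHCC97H had a median of -0.32, Hep3B of -0.17 and Huh7 of -0.68, and MHCC97H was below both lines for 5 of 36 (39.5% of all genes) and between them for 22. Neither limma nor the additive fit called a member. In limma, 11 were lower at an unadjusted p-value under 0.05, beside 566 of all 11548 genes. The 20 regulators of G1 were divided, with 8 above and 7 below both lines (40.1% and 36.2% of all genes) and a median difference of -0.0018. E2F2, a sister of E2F1, had a difference of -1.97, and RBL1, the RB relative p107 and itself an E2F target, of -1.14. The inhibitor CDKN1C had a difference of 1.18 (SE 1.28). CCND1, cyclin D1, changed by -0.08 in MHCC97H, -0.10 in Hep3B and 1.31 in Huh7. CDKN1B, the CDK inhibitor p27, changed by 0.77, 0.29 and 0.35 in the same order, and MYC by 0.15, 0.31 and -0.17. The last 3 were chosen after their values were seen.

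**Figure D3:**
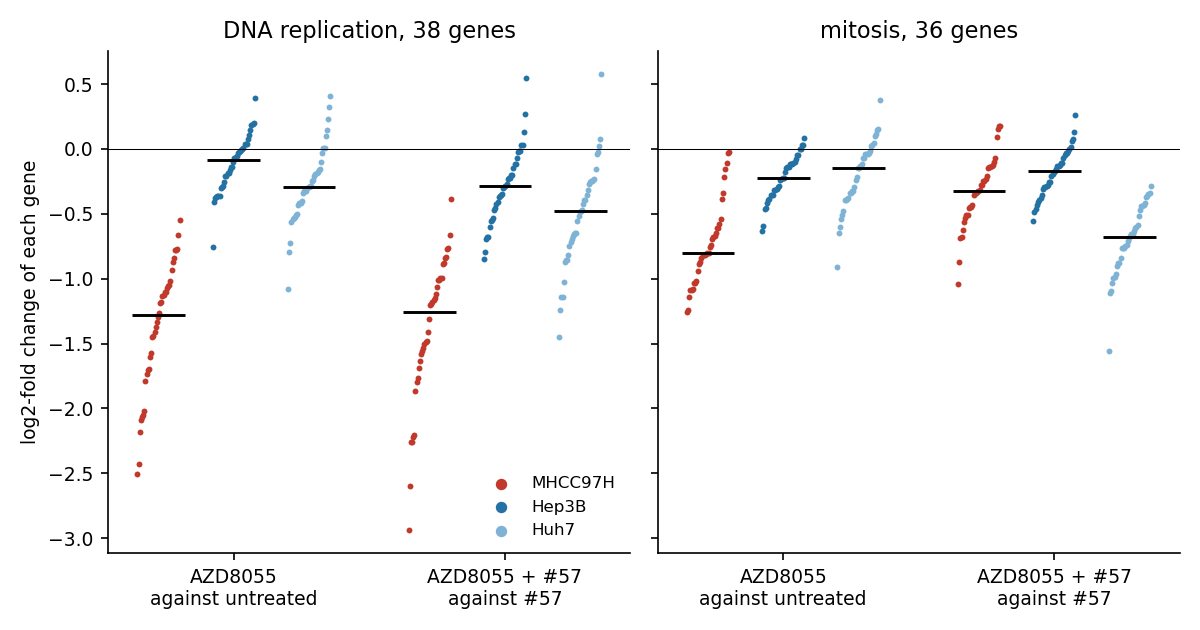
Each point is the log2-fold change of 1 gene in 1 cell line, for 38 DNA replication genes (left) and 36 mitosis genes (right), with AZD8055 against untreated cells and with the combination against compound #57 alone. Black bars are medians, and the MHCC97H median (red) of the DNA replication genes is -1.28 and -1.25 in the respective pairs, while that of the mitosis genes is -0.80 and -0.32.

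AREG and EREG, ligands of the EGF receptor family, were lower with AZD8055 in MHCC97H and higher in the other lines, but not all ligands of the family followed them. AREG (amphiregulin, chromosome 4, 74445136 to 74455005), an EGF receptor ligand that is shed from the cell surface, stood at 183 in untreated MHCC97H cells and at 42.1 with AZD8055. It went from 84.4 to 661 in Hep3B and from 11.3 to 145 in Huh7. The MHCC97H line thus had the highest level of the untreated libraries and the lowest of those with AZD8055. The log2-fold changes were -2.09 (-2.55 to -1.70), 2.95 (2.65 to 3.30) and 3.57 (2.98 to 4.47), and the difference was -5.35 (SE 0.39, limma adjusted p = 0.0164). The adjusted p-value ran from 0.00572 to 0.0369 over the alternatives that kept the gene. On compound #57, AREG went from 102 to 47.7 in MHCC97H, from 270 to 710 in Hep3B and from 57.5 to 139 in Huh7, in the same directions and with a smaller difference of -2.41 (limma adjusted p = 0.286).

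EREG (epiregulin, chromosome 4, 74365145 to 74388749), a ligand of EGFR and ERBB4, was most abundant in MHCC97H. It went from 1998 to 364 there, from 153 to 267 in Hep3B and from 4.39 to 12.5 in Huh7, where it had 7 and 15 reads. The difference was -3.51 (SE 0.48, limma adjusted p = 0.131), and on compound #57 it was -2.75. BTC (betacellulin) went from 56.9 to 35.8 in MHCC97H, from 10.3 to 76.9 in Hep3B and from 9.40 to 25.8 in Huh7, with 11 and 15 reads in the untreated libraries of the latter lines. HBEGF stood at 40.0 and 38.6 in MHCC97H, at 27.2 and 67.1 in Hep3B and at 70.2 and 170 in Huh7. Differences were -2.73 for BTC and -1.31 for HBEGF, neither of them called. Of 17 receptor ligands in the table, 8 were below both lines (36.2% of all genes), and AREG, EREG, BTC and HBEGF were the only ones below by 1 or more. The neuregulin NRG1, a ligand of ERBB3 and ERBB4, had log2-fold changes of -0.18 in MHCC97H, -0.69 in Hep3B and 0.85 in Huh7, and so lay between the lines. The ephrin EFNA1 went the other way, from 95.3 to 390 in MHCC97H, with a difference of 1.01. The median difference of the whole list was -0.25, and 0.11 among the 5 members with at least 50 reads in each library, so that no direction holds for the list. The EGF receptor itself, EGFR, changed by -0.02 in MHCC97H, 0.03 in Hep3B and 0.42 in Huh7.

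CXCL8 (chromosome 4, 73740519 to 73743716), the neutrophil chemokine interleukin-8, was the other called gene. It stood at 61.5 and 42.1 in MHCC97H, at 97.6 and 614 in Hep3B and at 105 and 894 in Huh7. The untreated libraries were near each other, and with AZD8055 the levels of Hep3B and Huh7 lay far above that of MHCC97H. The log2-fold changes were -0.53 (-1.05 to -0.04), 2.64 (2.36 to 2.96) and 3.07 (2.85 to 3.33), and the difference was -3.39 (SE 0.31, limma adjusted p = 0.0391). The call was lost with each library centred on its median (0.0528), with the 75% of genes with the highest mean (0.0514), without a trend (0.128) and with voom on the whole reads (0.179). With additive terms it was 0.0305, and 0.0614 when Huh7 was also left out, and the lowest adjusted p-value among the alternatives was 0.0243. On compound #57, CXCL8 stood at 172 and 184 in MHCC97H, at 344 and 776 in Hep3B and at 383 and 1066 in Huh7, a difference of -1.23.

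Other single genes that were named for a gap below both lines had higher levels with AZD8055 in Hep3B and Huh7. They were chosen by this gap and form no list. DUSP1, a phosphatase of MAP kinases that is induced as an immediate-early gene, stood at 141 and 134 in MHCC97H, at 138 and 943 in Hep3B and at 285 and 2201 in Huh7, a difference of -2.93. The protease PRSS23 stood at 1128 and 997 in MHCC97H, at 140 and 873 in Hep3B and at 395 and 3042 in Huh7, a difference of -2.97. The matricellular protein CYR61 (CCN1, chromosome 1, 85580761 to 85584589), a target of YAP and TEAD, went from 188 to 302 in MHCC97H, from 312 to 2514 in Hep3B and from 397 to 3990 in Huh7. VGLL3, a cofactor of TEAD, went from 320 to 448, from 121 to 815 and from 15.0 to 308 in the same order. CTGF, ANKRD1 and TAGLN were picked after these values were seen and are given as values only. CTGF (CCN2) had log2-fold changes of 0.06, 2.37 and 2.0 in MHCC97H, Hep3B and Huh7, ANKRD1 of 1.14, 2.74 and 2.72 and the actin-binding TAGLN of 0.77, 3.00 and 3.52. None of these genes was called by limma, and their differences lay between -1.60 and -3.02. With compound #57 the difference of VGLL3 was -2.09 and that of PRSS23 -1.88, but that of CYR61 was -0.04 and that of CTGF -0.21.

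The promoters of all genes below both lines by 1 or more were searched for the AP-1 motif TGACTCA and, after the data were seen, the TEAD motif GGAATG, on both strands. The AP-1 motif was found in 5.91% and the TEAD motif in 20.2% of these promoters, compared with 4.52% and 14.9% of the table genes. Of all reference promoters, 6.05% and 16.7% had them, and of the genes above both lines by 1 or more, 5.1% and 17.0%. The share of AP-1 was thus near these others, and that of TEAD was little higher. The bases before the start are shown for CXCL8 (chr4:73740319-73740568, plus strand), with the AP-1 motif in capitals, and for CCN2 (chr6:131951373-131951622, minus strand), with the TEAD motif in capitals. They were chosen as a called gene and as a gene described above with repeated TEAD matches.
CXCL8: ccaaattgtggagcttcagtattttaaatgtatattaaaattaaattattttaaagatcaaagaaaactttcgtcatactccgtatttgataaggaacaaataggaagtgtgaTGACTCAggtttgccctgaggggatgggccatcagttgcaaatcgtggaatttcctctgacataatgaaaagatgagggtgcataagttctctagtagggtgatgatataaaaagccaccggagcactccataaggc
CCN2: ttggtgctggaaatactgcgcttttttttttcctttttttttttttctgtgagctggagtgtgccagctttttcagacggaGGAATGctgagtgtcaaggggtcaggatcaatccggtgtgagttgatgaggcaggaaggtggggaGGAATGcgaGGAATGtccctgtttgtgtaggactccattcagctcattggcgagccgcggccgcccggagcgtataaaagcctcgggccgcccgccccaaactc
The AP-1 match of CXCL8 begins 137 bases before the start, and the TEAD matches of CCN2 begin 169, 104 and 95 bases before it.

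**Figure D4:**
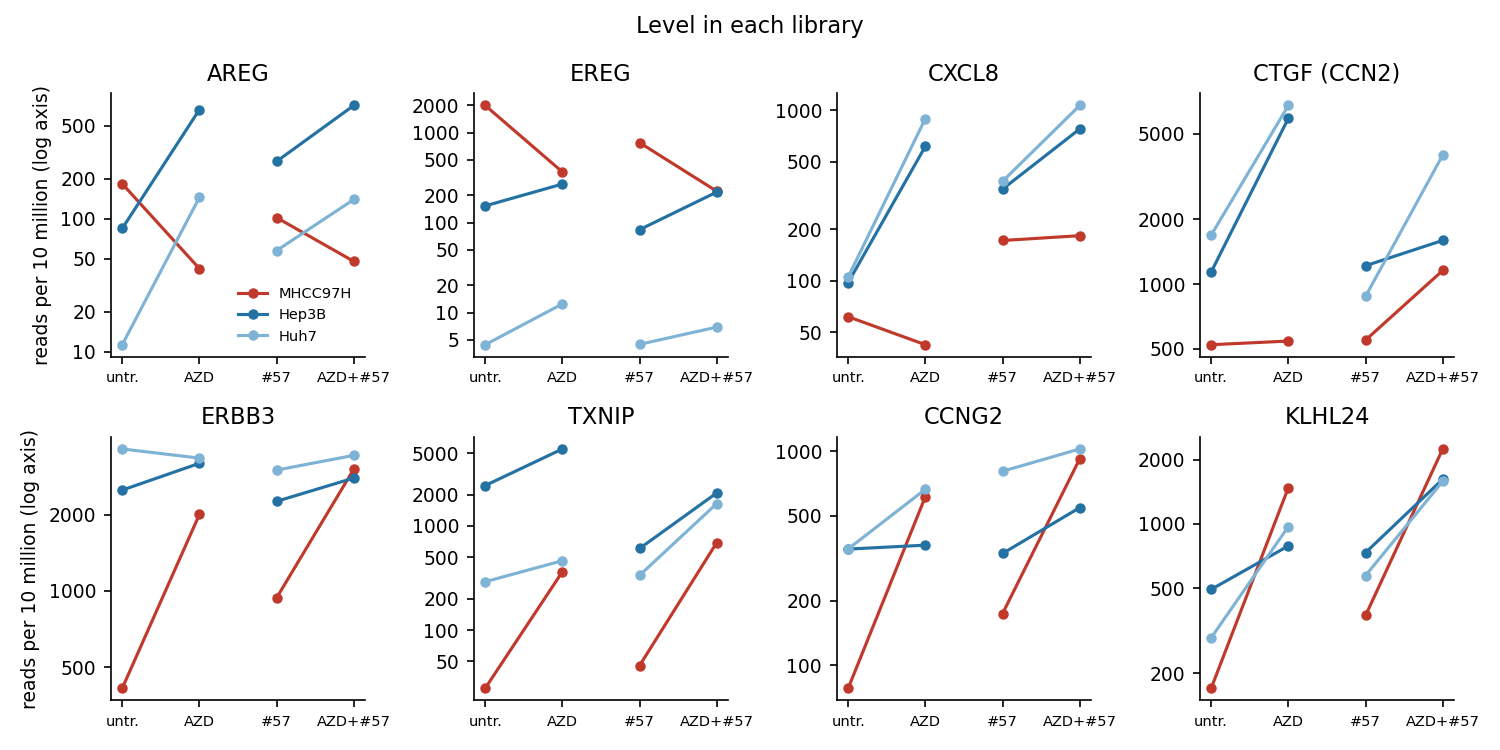
Each panel gives the level of 1 gene (reads per 10000000, log axis) in the 12 libraries, with lines from untreated cells to AZD8055 and from compound #57 (#57) to the combination within a cell line. AREG and EREG are lower with AZD8055 in MHCC97H and higher in the other lines in both pairs, CXCL8 and CTGF are higher in Hep3B and Huh7, and ERBB3, TXNIP, CCNG2 and KLHL24 have their steepest lines in MHCC97H, where they start lowest.

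FOXO targets had medians above 0 with AZD8055 in all lines, and the highest in MHCC97H. The list was chosen with earlier results of these data known, so that its counts are descriptions. Of 26 listed genes 25 were in the table, and their median response was 1.31 on the log2 scale in MHCC97H, 0.41 in Hep3B and 0.73 in Huh7. In MHCC97H 24 of 25 were higher, against 18 in Hep3B and 20 in Huh7. The MHCC97H value was above both lines for 20 of 25 (40.1% of all genes), by 1 or more for 7 (3.4%) and below both for none. Among the 16 members with at least 50 reads in each of the 6 libraries it was above both for 13, and by 1 or more for 3. Of all genes with this many reads, 38.4% were above both and 1.41% by 1 or more. On compound #57 it was above both for 22 of 25 (33.1% of all genes), with a median difference of 0.72 after 0.68 with AZD8055 alone. limma called none, while the additive fit called 10 higher (5.07% of all genes). At an unadjusted limma p-value under 0.05, 9 were higher, beside 705 of all 11548 genes.

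ERBB3 (HER3, chromosome 12, 56076799 to 56103505), a receptor of neuregulins that signals through its partners and a FOXO target, went from 413 to 2009 in MHCC97H, from 2507 to 3200 in Hep3B and from 3646 to 3355 in Huh7. MHCC97H cells thus started below the other lines and came near them. The difference was 2.16 (SE 0.26, limma adjusted p = 0.109), the additive fit called it, and on compound #57 it was 1.44. CCNG2, a cyclin of arrested cells, went from 78.4 to 613 in MHCC97H, from 349 to 364 in Hep3B and from 350 to 663 in Huh7, a difference of 2.46. TXNIP (chromosome 1, 145992435 to 145996579), which restrains glucose uptake and binds thioredoxin, went from 27.7 to 364 in MHCC97H, from 2445 to 5489 in Hep3B and from 291 to 464 in Huh7, a difference of 2.75 with an SE of 1.26. PIK3IP1, an inhibitor of PI3K, had 1 read in untreated MHCC97H cells and 26 with AZD8055, and its log2-fold change of 3.44 had an interval of 1.96 to 9.93.

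Further members are given here after their values were seen. KLHL24 went from 170 to 1481 in MHCC97H, from 493 to 789 in Hep3B and from 293 to 972 in Huh7, and YPEL3 from 12.3 to 132, from 135 to 256 and from 30.7 to 74.0. Their differences were 1.91 and 2.24. Other targets had high values in all 3 lines. BMF, a pro-apoptotic BH3-only protein, had log2-fold changes of 2.83 in MHCC97H, 2.24 in Hep3B and 2.68 in Huh7. IRS2, the insulin receptor substrate, had 2.94, 1.44 and 3.39. The insulin receptor INSR had 1.22, 0.68 and 1.18. SESN3, a sestrin that restrains mTOR complex 1, stood at 0 reads in untreated MHCC97H cells and at 8 with AZD8055, at least 2.44-fold higher with a floor of 3 reads per library. In Hep3B it was lower, with 1385 and 234 reads per 10M, and in Huh7 as well, with 1078 and 707.

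The FOXO core motif GTAAACA was found in 5 of the 22 members with a promoter in the reference (22.7%), in 7.14% of the promoters of genes above both lines by 1 or more and in 3.63% of those of the table. TXNIP is shown as the member of the list with the largest difference among those with at least 10 reads in every library, at chr1:145996580-145996829 (minus strand), with the motif in capitals.
TXNIP: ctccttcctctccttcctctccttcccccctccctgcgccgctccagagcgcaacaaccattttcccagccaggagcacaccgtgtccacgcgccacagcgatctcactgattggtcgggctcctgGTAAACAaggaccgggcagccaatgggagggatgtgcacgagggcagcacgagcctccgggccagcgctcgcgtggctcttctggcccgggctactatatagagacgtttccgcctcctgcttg
The match begins 124 bases before the start.

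Of the 20 receptor tyrosine kinases in the table, MHCC97H lay above both lines for 8 and below both for 9, near the shares over all genes (40.1% and 36.2%), and the median difference was -0.08 with AZD8055 alone and -0.16 on compound #57. Only ERBB3 and PDGFRB (0 and 5 reads in MHCC97H) were above by 1 or more, and AXL alone was below by 1 or more. AXL, a receptor of GAS6, went from 578 to 934 in MHCC97H, from 5.63 to 32.7 in Hep3B and from 0.627 to 47.4 in Huh7, where untreated cells had 1 read. Its difference was -2.93 (SE 1.01, limma adjusted p = 0.350), and -1.26 with 10 added. The receptors DDR1, ERBB2, FGFR3, IGF1R and INSR differed by between -0.21 and 0.29, and EPHA2 by -0.61 (SE 0.45). The 11 receptors of the study were picked by its authors on these libraries, and a pair of them (EPHB3, PDGFRA) is not analysed here. The insulin signaling feedback list, with 27 genes, had a median of 0.23 in MHCC97H, -0.03 in Hep3B and 0.06 in Huh7, and 15 of 27 lay above both lines (40.1% of all genes). Among them FOXO4 went from 35.3 to 99.0 in MHCC97H, with a difference of 1.25. DDIT4 (REDD1), an inhibitor of mTOR complex 1, was lower in all lines, with log2-fold changes of -0.62, -1.24 and -2.57 in MHCC97H, Hep3B and Huh7.

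The genes with the largest gaps above the other lines were often scarce in MHCC97H. The 12 named by the gap were SATB1, SESN3, LYZ, TNFSF10, CPS1, SEMA6B, PAIP2B, PIPOX, TCP11L2, AASS, NR1H4 and TXNIP, and none was called. SATB1, SESN3, CPS1 and SEMA6B had 0 reads in untreated MHCC97H cells, and with AZD8055 they had 26, 8, 4 and 6 reads, at least 7.92-fold, 2.44-fold, 1.22-fold and 1.83-fold higher. LYZ had 1 and 7 reads in MHCC97H, while it was lower in the other lines, with 1141 and 381 reads per 10M in Hep3B and 7518 and 1541 in Huh7. Its difference of 3.67 rests on log2-fold changes of -1.58 and -2.29 in these lines and of 1.74 in MHCC97H. With 10 added in place of 1, 9 of the 12 differences were smaller by more than 1.5 times, at 1.55 for SATB1, 2.20 for SESN3, 2.39 for LYZ, 2.17 for TNFSF10, 1.61 for CPS1, 1.37 for SEMA6B, 1.06 for PAIP2B, 1.63 for PIPOX and 0.925 for AASS. TCP11L2 rested on more reads and went from 36.9 to 453 in MHCC97H, from 23.5 to 45.0 in Hep3B and from 21.9 to 26.6 in Huh7, a difference of 2.99 (SE 0.46, limma adjusted p = 0.131) and of 2.16 on compound #57. TNFSF10, the death ligand TRAIL, had 10 and 49 reads in MHCC97H, 18 and 8 in Hep3B and 60 and 17 in Huh7, and its difference on compound #57 was 2.64. NR1H4, the bile acid receptor FXR, went from 24 to 40 reads in MHCC97H, from 430 to 121 in Hep3B and from 1092 to 202 in Huh7.

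With at least 50 reads in both MHCC97H libraries, a choice made after the data were seen, other genes led. The histone gene HIST1H2AC went from 55.3 to 320 in MHCC97H, from 243 to 369 in Hep3B and from 1285 to 1043 in Huh7, with a difference of 2.36 and, on compound #57, of 3.23. AADAC, a liver esterase, went from 68.4 to 197 in MHCC97H, from 83.5 to 44.2 in Hep3B and from 55.8 to 18.3 in Huh7. ST6GAL1, a sialyltransferase, went from 851 to 1665 in MHCC97H, from 5038 to 2352 in Hep3B and from 4733 to 1778 in Huh7. VCAN, the proteoglycan versican, had a difference of 2.66 with AZD8055 alone and of 0.03 on compound #57, so that the latter libraries did not show it again.

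Other genes that were named by a gap below the other lines also had few reads in some library. TUBA1A, an alpha-tubulin, had 19 and 10 reads in MHCC97H, 22 and 414 in Hep3B and 101 and 633 in Huh7, a difference of -4.46 (SE 0.87, limma adjusted p = 0.164). EMP1, a membrane protein, stood at 1743 and 2526 in MHCC97H and had 0 and 75 reads in Hep3B and 0 and 11 in Huh7, at least 21.8-fold and 4.86-fold higher in the latter lines. With 10 added its difference was -1.35 in place of -4.12. On compound #57 its difference was 0.59, with the opposite sign. ETS1 had 0 and 5 reads in Huh7 and 13 and 65 in Hep3B, while MHCC97H stood at 605 and 409, and its difference was -2.77, or -1.56 with 10 added. SYT12, FSTL1, USP2 and PRSS35 had at most 25 reads in either MHCC97H library, and the difference of USP2 was -2.84, or -0.925 with 10 added.

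Many genes of liver function were scarce in 1 or more lines and are in the table through the others, so counts are given for members with at least 50 reads in each of the 6 libraries. Of 20 genes of drug and bile acid metabolism in the table, 7 had this many, and 6 of them lay above both lines, none by 1 or more. In all genes with this many reads, 38.4% lay above both lines and 38.0% below. The medians of the 7 were -0.0006 in MHCC97H, with -0.24 for Hep3B and -0.18 for Huh7, and their median difference was 0.70. Over all 20 members the median difference was 0.90, and it was 0.445 without Huh7. CYP3A5, a drug-oxidizing cytochrome, was best expressed in MHCC97H, where it went from 338 to 921. It had 3 and 2 reads in Hep3B and 36 and 25 in Huh7. SULT1A1, a phenol sulfotransferase, had 15 and 40 reads in MHCC97H, 369 and 336 in Hep3B and 99 and 29 in Huh7. Of 37 hepatocyte plasma proteins, 23 had under 50 reads in an MHCC97H library. Of the 14 with at least 50 reads in each library, 6 lay above both lines and 5 below, near the shares over all such genes. Their median difference was 0.10, beside 0.50 over all 37 members and 0.286 over these without Huh7. The low level of hepatocyte markers in MHCC97H moves with these lists, and its part in them was not tested. ALB was lower in all lines, by -1.09, -0.82 and -0.77. CDH1, the epithelial cadherin, went from 196 to 310 in MHCC97H, from 1155 to 708 in Hep3B and from 958 to 611 in Huh7, and was called by the additive fit. The liver transcription factors as a list did not stand apart, with a median difference of 0.04 that changed sign with each library centred on its median or with 10 added.

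Genes of the unfolded protein response were lower in MHCC97H and Huh7. The median of 24 chaperones of the endoplasmic reticulum and factors of this response in MHCC97H was -0.67, beside -0.13 for Hep3B and -0.59 for Huh7, and MHCC97H was below both lines for 17 of 24 (36.2% of all genes). HSPA5 (BiP), the main chaperone of the compartment, went from 8454 to 2189 in MHCC97H, from 10286 to 8297 in Hep3B and from 12347 to 6621 in Huh7, a difference of -1.34 (SE 0.33, limma adjusted p = 0.247). MANF, a secreted factor of the same response, went from 560 to 185, from 406 to 459 and from 498 to 311. Targets of ATF4, which mTOR complex 1 is known to sustain, had medians of -0.62, -0.21 and -0.64 in MHCC97H, Hep3B and Huh7, and 23 of 39 lay below both lines (36.2% of all genes). PHGDH, the first enzyme of serine synthesis, had 115 and 13 reads in MHCC97H and went from 855 to 652 reads per 10M in Hep3B and from 2951 to 899 in Huh7. The difference of both lists was larger against Hep3B alone, at -0.71 and -0.65, than against Huh7 alone, at -0.28 and -0.04.

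The genes of cholesterol synthesis differed between the lines with compound #57 present but little with AZD8055 alone. With AZD8055 alone, the 25 genes had medians of -0.48 in MHCC97H, -0.22 in Hep3B and -0.65 in Huh7, and a median difference of -0.08. On compound #57 the medians were -0.24, -1.30 and -1.11, MHCC97H lay above both lines for 25 of 25 genes (33.1% of all genes), and the median difference was 0.99. HMGCS1, an early enzyme of the pathway that was chosen after its values were seen, had differences of 0.15 and 1.04 in the respective pairs. The difference between the pairs was tested by limma, which called no gene of the table (162 at an unadjusted p-value under 0.05). Ribosome biogenesis had a median difference of -0.22 with AZD8055 alone, with 15 of 30 genes below both lines (36.2% of all genes), and of -0.73 on compound #57, with 29 of 30 (39.5% of all genes). NOP56, a core protein of ribosomal RNA methylation, went from 3960 to 1877 in MHCC97H, from 4008 to 3158 in Hep3B and from 4375 to 2976 in Huh7.

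**Figure D5:**
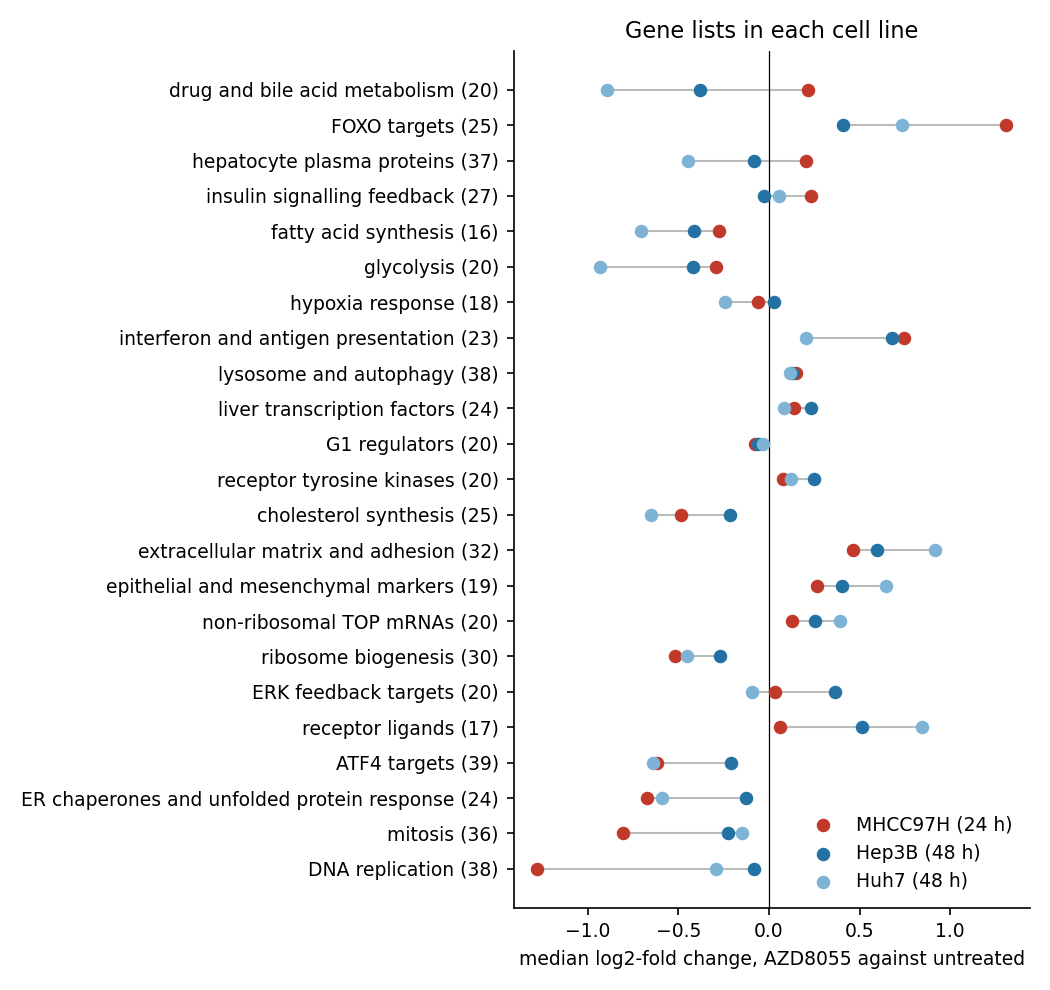
Median log2-fold change (AZD8055 against untreated) of each of 23 gene lists in MHCC97H (red), Hep3B (dark blue) and Huh7 (light blue), ordered by the median difference, with the number of genes in the table in brackets. MHCC97H is the lowest for DNA replication (-1.28) and mitosis (-0.80) and the highest for FOXO targets (1.31), while the lines lie close together for lysosome genes and G1 regulators.

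The remaining lists differed less between the lines. The genes of lysosome and autophagy had medians of 0.15, 0.13 and 0.12 in MHCC97H, Hep3B and Huh7, with 20 of 38 above both lines (40.1% of all genes). Within this list GABARAPL1, an ATG8 protein of the autophagosome, went from 124 to 472 in MHCC97H, from 131 to 207 in Hep3B and from 199 to 322 in Huh7, a difference of 1.26. Median differences were 0.28 for fatty acid synthesis, 0.21 for glycolysis, 0.18 for the hypoxia response, 0.15 for interferon and antigen presentation, -0.11 for extracellular matrix and adhesion, -0.13 for epithelial and mesenchymal markers, -0.20 for non-ribosomal TOP mRNAs and -0.25 for ERK feedback targets. Those of glycolysis and of the ERK feedback targets turned with the line left out, to -0.10 without Huh7 and to 0.08 without Hep3B. On compound #57 the ERK feedback targets had a median difference of -0.69, with 14 of 20 below both lines (39.5% of all genes).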

How the data were processed

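RNA sequencing libraries (stranded, polyadenylated RNA) were made from Hep3B, MHCC97H and Huh7 cells, 1 per line and treatment, 12 in all. The deposited table holds log2 values, 1 per gene in each library, which the authors made from reads aligned to hg38. The aligner and the counting are not given in the sources used here. From the values, each is a log2 value taken after scaling reads to 10000000 a library and adding 1, and 0 reads were written as 0.001 and treated as 0. Values were whole multiples of 1 read in 100% of cases (tolerance 0.1 read), so that reads could be recovered. The table holds 98.631% to 99.261% of a library's reads in 11548 genes with a mean of at least 4.647 on the log2 scale, which leaves out scarcer genes. It has 18 genes with names turned into dates, which were tested but not named, and 3 names on 2 lines each.

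Gene positions came from GENCODE release 44 (hg38), with 11245 genes matched by symbol, and promoters from RefSeq. limma 3.58.1 (R 4.3.3) was fitted to the log2 values of all 12 libraries with trend, with terms for cell line, treatment and treatment in MHCC97H, 3 residual degrees of freedom and 4.45 from the prior. Nothing says that libraries of a line came from separate cultures, so p-values measure only the spread between these libraries. The call was a Benjamini-Hochberg adjusted p-value under 0.05. In simulated data of 11548 genes for this comparison, 0% of 50 genes were recovered at a log2 difference of 0.5 or of 1, 30% at 2 and 78% at 3, with 0 unchanged genes called. The spread of a gene was capped in these simulated data, and its mean level was the same in all lines. Alternatives were 10 added in place of 1, centring, the 75% of genes with the highest mean, no trend, voom on the recovered reads, the 6 libraries of 1 comparison, additive terms, and leaving out Hep3B or Huh7.

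Genes were named by the 12 largest gaps in each direction among genes with at least 50 reads in 1 or more of the 6 libraries and a gap of at least 1, by up to 4 members of each list with the largest differences, and as receptors the study names. A further pick by gap, among genes with at least 50 reads in both MHCC97H libraries, was made after the data were seen. Other genes outside these rules are said to be chosen after their values were seen. The comparison and the lists were chosen with earlier results of these data known. Floors and intervals cover counting error only.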

Additional observations from a re-analysis of the deposited data

Results flagged for a closer look

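Responses in opposite directions in MHCC97H and in both other lines stood out for the following genes. AREG had a difference of -5.35 and CXCL8 of -3.39, and both were called (limma adjusted p = 0.0164 and 0.0391). For the others the difference was tested by limma and was not called at an adjusted p-value of 0.05. Among genes higher in MHCC97H and lower in Hep3B and Huh7, the difference was 4.31 for SESN3, 3.67 for LYZ, 3.33 for TNFSF10, 3.28 for CPS1, 3.26 for SEMA6B, 2.84 for PAIP2B and 2.60 for NR1H4. Each of these had at most 49 reads in either MHCC97H library, and with 10 added in place of 1 the differences were 2.20, 2.39, 2.17, 1.61, 1.37, 1.06 and 2.37 in the same order. Among genes lower in MHCC97H and higher in the other lines, it was -4.46 for TUBA1A, -3.55 for SYT12, -3.51 for EREG, -3.34 for PRSS35, -3.02 for FSTL1, -2.97 for PRSS23, -2.93 for DUSP1 and -2.77 for ETS1. TUBA1A, SYT12, PRSS35 and FSTL1 had at most 25 reads in either MHCC97H library, whereas EREG, PRSS23, DUSP1 and ETS1 had at least 184 there. Of these, DUSP1 and PRSS23 changed little in MHCC97H, so that their differences rest on the higher levels in Hep3B and Huh7. The same holds for most of the difference of CXCL8. EREG and ETS1 were scarce in Huh7, where EREG had 7 and 15 reads. With 10 added, ETS1 had a difference of -1.56 and EREG of -3.13.

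The medians of 2 lists also had opposite signs in MHCC97H and in the other lines. The median difference was 0.50 for hepatocyte plasma proteins and 0.90 for drug and bile acid metabolism, and neither was tested. Without Huh7 they were 0.286 and 0.445, and without Hep3B 0.598 and 1.20. Among members with at least 50 reads in each library they were 0.10 and 0.70. The medians of opposite sign were not seen among these members. For hepatocyte plasma proteins they were -0.12 in MHCC97H, -0.09 in Hep3B and -0.24 in Huh7. For drug and bile acid metabolism they were -0.0006, -0.24 and -0.18 in the same order.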

How the results depend on the processing

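The number of genes called to differ in AZD8055 response, 2 in the fit reported, was 1 without trend, 1 with libraries centred, 1 with voom, 0 among the 75% of genes with the highest mean (where AREG was not tested and CXCL8 had an adjusted p of 0.0514 in limma), 41 from only 6 libraries and 1100 with additive terms. With additive terms it ran from 410 to 805 when Huh7 or Hep3B was left out. With 10 added it was 2. The adjusted p of CXCL8 in limma was 0.0528 with libraries centred. On compound #57 the count was 18 from only 6 libraries and 0 in the other fits, and the difference between both pairs was called for 0 genes in each fit. Of 128 named genes, 128 kept the sign of the difference without Hep3B, without Huh7 and with libraries centred, and 127 with 10 added, where PDGFRB had -0.22 in place of 1.504. Of 23 list medians, 22 kept their sign with 10 added, 22 with libraries centred, 19 without Hep3B, 20 without Huh7 and 22 among members with at least 50 reads in each library. With either other line left out, the median difference ran from -0.983 to -0.066 for receptor ligands, from 0.625 to 1.06 for FOXO targets, from 0.445 to 1.20 for drug and bile acid metabolism and from -0.58 to -0.53 for mitosis. For receptor ligands it was 0.11 among members with at least 50 reads in each library. The cause of these changes was not tested. Libraries are compared within a cell line in every fit, and no replicate numbers exist to block on. Differences under 2 on the log2 scale could seldom be called with these libraries, and genes with under 50 reads have wide intervals.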

Other observations

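The called genes AREG and CXCL8 lie in the same stretch of chromosome 4 as EREG and BTC. Between positions 73000000 and 76000000 (hg38) the table has 19 genes, of which 9 were below both lines (36.2% of all genes), 4 of them by 1 or more (2.38%), and 7 above both (40.1%). The stretch was drawn around these genes after their values were seen, so that the counts are a description. The 4 below by 1 or more were CXCL8, EREG, AREG and BTC. Of the other genes, NAAA, an amidase of the lysosome, had a difference of 1.74. The rest were nearer to 0, among them -0.67 for CXCL5, -0.66 for MTHFD2L, -0.60 for CXCL1, -0.29 for ALB, -0.04 for AFP, 0.17 for ANKRD17 and 0.33 for RASSF6. CXCL1, a chemokine that binds the same receptor as CXCL8, had 4 and 12 reads in MHCC97H, 102 and 303 in Hep3B and 72 and 264 in Huh7, so that it was higher with AZD8055 in all lines.

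On compound #57, CPS1, the first enzyme of the urea cycle, differed between the lines by 5.30 (limma adjusted p = 0.162). It had 0 and 5 reads in MHCC97H, 935 and 92 in Hep3B and 1083 and 120 in Huh7. DDIT4 differed by 2.60 there, with 420 and 418 reads in MHCC97H, 790 and 96 in Hep3B and 324 and 40 in Huh7.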
